A study of Mus musculus with 72 samples.

Results

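The 10 core cardiac transcription factors described here are the homeodomain gene Nkx2-5, the zinc-finger genes Gata4 and Gata6, the basic helix-loop-helix genes Hand1 and Hand2, the T-box genes Tbx5 and Tbx20, and the MADS-box genes Mef2a, Mef2c and Srf. They were listed by symbol, with earlier results of these data known, and are 10 of the 24237 genes counted in 72 RNA-seq libraries of adult mouse heart. Hearts of C57BL/6J background were microdissected into right atrium (RA), left atrium (LA) and ventricles (V) at 10 months of age by the study's methods and 9 months by the sample labels. Each compartment of each sex has 3 libraries in each of 4 groups. Naïve Ahr+/+ mice were born to dams given corn oil vehicle. High-dose and low-dose mice were Ahr+/+ offspring of dams gavaged with TCDD, a dioxin that activates the aryl hydrocarbon receptor (AHR), at 1 or 0.1 μg/kg on 3 days of gestation, which the labels place at E13.5, E15.5 and E18.5 and the study's methods place earlier in gestation. Ahr-/- mice lack the receptor in every cell throughout life, and their dams were untreated. The labels name TCDD as the treatment of all samples, naïve and Ahr-/- included, and call the tissue cardiomyocytes, although whole compartments were extracted. All 3 compartments came from the same hearts, and which libraries share a heart is not stated.

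These factors bind DNA next to one another on the control regions of heart muscle genes, and most of them raise one another's activity as partners. Nkx2-5, Gata4, Tbx5, Tbx20 and Mef2c are needed for the heart to form, Hand1 and Hand2 are known for the growth of the left and right ventricle of the embryo, and several of the genes are mutated in congenital heart disease. In the adult they keep the muscle's contractile and conduction genes active, and Srf, Gata4 and the MEF2 proteins also take part in hypertrophic growth.

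Checks of the labels bear on several results below. Ahr lay between 2.00 and 9.23 CPM (reads of a gene divided by all reads of its library and scaled to 1000000) in Ahr-/- libraries, median 5.05, and between 8.59 and 30.8 CPM in naïve libraries, median 14.2. In 8 libraries Xist and the Y-linked genes went against the labelled sex, and in 15 the atrial light chain gene Myl4 went against the labelled chamber (under 100 CPM in an atrium or over 100 CPM in a ventricle). Both checks failed in 4 of them, so 19 libraries are called doubted here and 53 are not. Libraries 49 to 72 hold 12 of the doubted ones and libraries 1 to 48 hold 7. The 12 follow the same order in all 4 groups: the labelled female RA libraries (50, 56, 62 and 68) had Y-linked genes summing to 155 to 304 CPM and Xist of 0.10 to 0.83 CPM, the labelled male LA libraries (51, 57, 63 and 69) had Myl4 of 2.21 to 4.57 CPM, and the labelled male V libraries (53, 59, 65 and 71) had Xist of 177 to 329 CPM and Myl4 of 704 to 3533 CPM. These checks tell the sexes and atrium from ventricle, not right from left atrium, so an exchange of labels that also reached libraries not doubted here, such as the labelled female LA libraries 52, 58, 64 and 70, cannot be told apart from correct labels. All libraries stay in the group their label gives, and most results that rest on doubted ones are given with and without them. The sex-by-exposure models and the genes most like each member are given with all libraries only. Library totals ran from 11873417 to 28789382 reads with a median of 19231739.

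Promoter windows of RefSeq (250 bases before to 50 bases after a transcript start, assembly GRCm38.p6) were found for 6 of the 10 genes, 8 windows in all. Those of Nkx2-5, Hand2 and Srf are printed because these genes were the members higher in ventricles of high-dose females. Capitals mark GCGTG, the core of the sites that AHR binds with its partner ARNT, and the CArG box, the site that SRF binds.

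Nkx2-5, chr17:26841516-26841815, minus strand: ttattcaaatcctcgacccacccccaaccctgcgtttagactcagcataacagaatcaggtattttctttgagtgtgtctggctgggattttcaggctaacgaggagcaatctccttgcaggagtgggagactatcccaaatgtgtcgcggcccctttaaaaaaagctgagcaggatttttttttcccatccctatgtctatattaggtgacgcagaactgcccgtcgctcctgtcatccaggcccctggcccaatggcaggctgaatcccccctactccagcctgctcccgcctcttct
Hand2, chr8:57320733-57321032, plus strand: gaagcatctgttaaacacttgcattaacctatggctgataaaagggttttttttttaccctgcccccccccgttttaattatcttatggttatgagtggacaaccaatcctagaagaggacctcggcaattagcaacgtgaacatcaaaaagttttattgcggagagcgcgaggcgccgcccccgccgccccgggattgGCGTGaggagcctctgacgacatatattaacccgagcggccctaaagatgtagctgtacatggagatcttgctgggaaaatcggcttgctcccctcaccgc
Srf, chr17:46556113-46556412, minus strand: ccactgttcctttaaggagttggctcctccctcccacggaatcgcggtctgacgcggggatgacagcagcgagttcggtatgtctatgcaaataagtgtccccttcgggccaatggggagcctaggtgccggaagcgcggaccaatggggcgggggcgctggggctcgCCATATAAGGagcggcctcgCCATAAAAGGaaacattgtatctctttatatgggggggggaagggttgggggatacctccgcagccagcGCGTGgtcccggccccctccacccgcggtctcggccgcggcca

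GCGTG, read on both strands, occurred in 5 of the 8 windows (Hand2, Srf, Mef2a, Tbx20 and 1 of 3 windows of Mef2c) and in 32.4% of the 32851 windows of the same length in the table. In Hand2 it lies 51 to 47 bases before the start, in Srf after the start, and the Nkx2-5 window does not hold these letters. The windows of Nkx2-5, Srf and Mef2a lie inside the gene spans given below and do not cover their upstream ends. Letters absent from such a window may be present at another start of the gene. A CArG box occurred in 1 of the 8 windows and in 1.63% of all windows. The Srf window holds 2 of them, 82 to 73 and 62 to 53 bases before the start, and 6 windows of the whole table (0.0183%) hold 2 or more. These matches describe letters, and no binding was measured.

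On GRCm38 the genes lie apart from one another: Nkx2-5 at chr17:26838664-26844988, Gata4 at chr14:63198914-63271712, Hand1 at chr11:57828713-57832147, Hand2 at chr8:57320983-57324517, Tbx5 at chr5:119796514-119885220, Tbx20 at chr9:24720812-24774303, Mef2a at chr7:67231163-67376456, Mef2c at chr13:83504017-83667079 and Srf at chr17:46546838-46558267, while Gata6 is on chromosome 18. Nkx2-5 and Srf share chromosome 17.

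Of the 10 genes, 9 were read in every library. Hand1 was the exception, with 49 reads over all 72 libraries, 0 reads in 55 of them, and at most 8 reads (0.317 CPM) in 1 library. A count of 3, taken here as the least that separates a gene from 0, equals between 0.104 and 0.253 CPM depending on depth, so Hand1 stood at the limit of these libraries in every compartment. It did not pass the filter on low counts in any comparison. Tested without that filter it was not called in high-dose female ventricle (adjusted p = 0.58 in edgeR), and no fold is given at this level. Its relative Hand2 was the lowest of the other 9, between 15.9 and 53.3 CPM with a median of 29.0.

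Median CPM over the 72 libraries was 359 for Mef2a, 210 for Tbx20, 118 for Gata4, 92.3 for Gata6, 87.6 for Mef2c, 85.2 for Nkx2-5, 84.1 for Tbx5 and 64.2 for Srf. Because longer genes collect more reads, levels of different genes were compared per kilobase of coding sequence. On that scale Mef2a led with a median of 240 CPM per kilobase, followed by Tbx20 at 157. Gata4 and Nkx2-5 stood level at 89.3 each, ahead of Mef2c at 60.3, Tbx5 at 54.1, Gata6 at 52.3, Hand2 at 44.6 and Srf at 42.4. Neighbours in this order overlapped between libraries: Mef2a ranged from 98.5 to 404 in LA alone, and Tbx20 there from 87.1 to 427. Per kilobase of the longest transcript, Nkx2-5 (55.9) moved to second place behind Mef2a (64.8) and Tbx20 (23.1) fell behind Gata4, Gata6 and Srf, so the order of levels depends on the length used.

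Tbx5, a factor known for the atria and the conduction system, had the widest range of the 9 genes as a ratio of highest to lowest, from 16.7 to 314 CPM. By label it lay between 31.2 and 314 CPM in the 24 RA libraries (median 157), between 18.0 and 258 CPM in LA (median 98.5) and between 16.7 and 118 CPM in V (median 34.3). The labelled compartments overlapped. Tbx5 was nonetheless 2.83-fold higher in RA than in V (log2 difference 1.499, SE 0.26, adjusted p = 3.5e-05) and 2.28-fold higher in LA than in V (1.19, SE 0.25, adjusted p = 0.0016), in edgeR's quasi-likelihood test over all 72 libraries with Benjamini-Hochberg adjustment. Members with an adjusted p under 0.05 are called here. In RA against V 3 of the 9 tested members were called, where 29.9% of all genes tested were (16.3% higher and 13.6% lower in RA). In LA against V 2 of 9 were called, both higher, where 19.4% of genes were (12% higher and 7.39% lower). With library size alone 5624 genes were higher and 732 lower in RA, and 3775 higher and 421 lower in LA. In this as in other whole-tissue measurements, fewer cells that express a gene and less RNA per cell cannot be told apart.

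**Figure D1:**
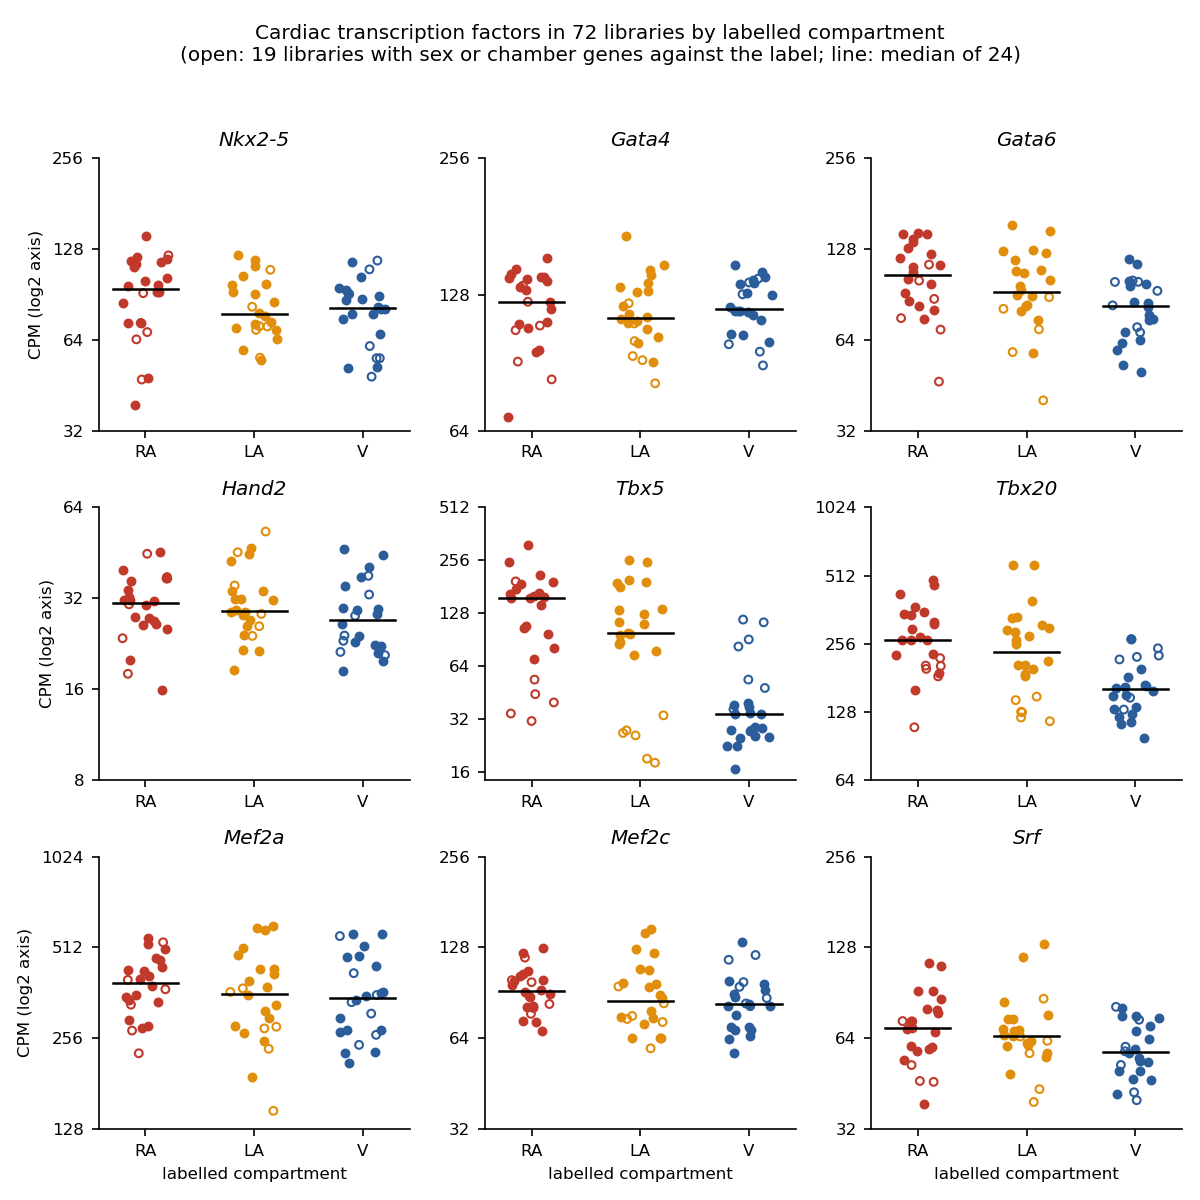
CPM of 9 members (log2 axes) in the 24 libraries of each labelled compartment, with open symbols for the 19 doubted libraries and a line at the median. Tbx5 separates atria from ventricles in the filled symbols (70.0 CPM and above against 39.4 CPM and below), while the other members overlap. The filled symbols were selected in part by the atrial gene Myl4.

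Without the 19 doubted libraries the labelled compartments separated for Tbx5. In 15 of the 19 the atrial gene Myl4 went against the label, so leaving them out selects libraries by chamber expression. A clearer separation of genes that follow Myl4 was therefore likely in advance and adds no separate support. This holds for every compartment contrast given without the doubted libraries. It ranged from 70.0 to 314 CPM in 18 RA libraries, from 74.4 to 258 CPM in 18 LA libraries and from 16.7 to 39.4 CPM in 17 V libraries. The log2 differences then were 2.33 in RA against V (SE 0.15, adjusted p = 2.8e-14) and 1.94 in LA against V (SE 0.15, adjusted p = 1.5e-12), with 45.3% and 40.7% of all genes called. In the 8 labelled atria with Myl4 under 100 CPM, Tbx5 lay between 18.0 and 34.4 CPM, and in the 17 labelled ventricles with Myl4 under 100 CPM between 16.7 and 39.4 CPM. The 4 labelled male V libraries that failed both checks (53, 59, 65 and 71) held 82.7 to 118 CPM. Over the 72 libraries the Pearson correlation of log2 Tbx5 with log2 Myl4 was 0.89, and 0.84 for deviations from the group means. Within the groups of the 53 other libraries it was 0.35. These libraries differ in chamber and in depth, so the correlations are descriptive.

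**Figure D2:**
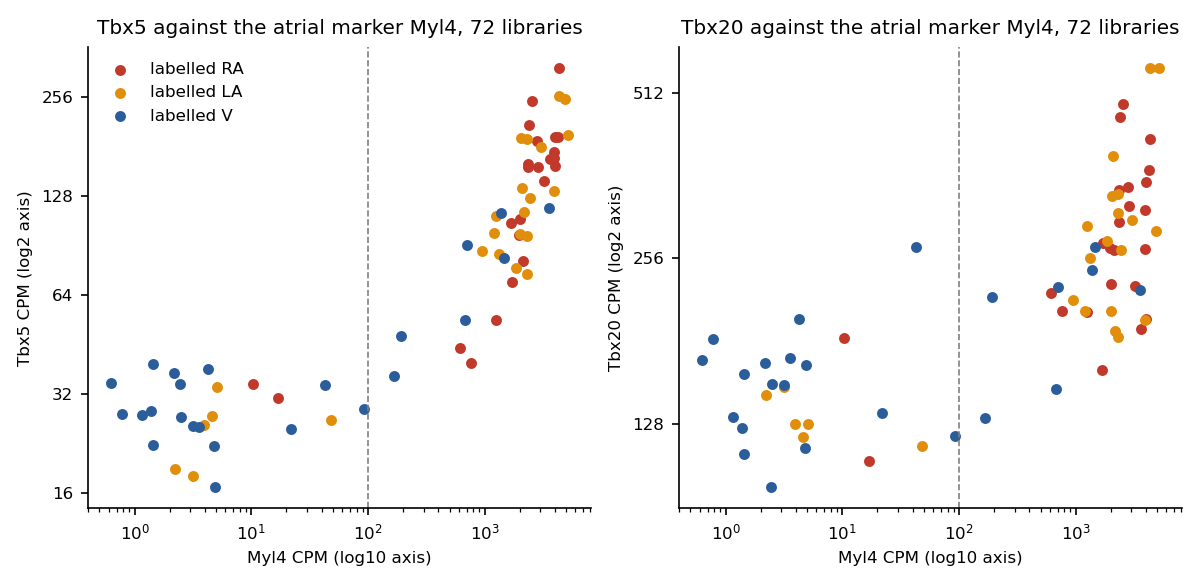
Tbx5 and Tbx20 (CPM, log2 axes) against Myl4 (CPM, log10 axis), 1 point per library coloured by labelled compartment, with a dashed line at the Myl4 level of 100 CPM used to check labels. Labelled atria left of the line have Tbx5 of 18.0 to 34.4 CPM and labelled ventricles right of it have 36.4 to 118 CPM.

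Tbx20, the other T-box member and one able to repress as well as activate, followed with a smaller difference. It lay between 109 and 490 CPM in RA (median 267), between 116 and 569 CPM in LA (median 236) and between 97.9 and 269 CPM in V (median 161). All 3 ranges overlapped. Tbx20 was 1.44-fold higher in RA than in V (log2 difference 0.53, SE 0.13, adjusted p = 0.0016) and 1.32-fold higher in LA than in V (0.40, SE 0.13, adjusted p = 0.022). Without the doubted libraries, a selection made in part by Myl4, these became 0.78 (SE 0.13, adjusted p = 6.0e-06) and 0.60 (SE 0.12, adjusted p = 0.00018).

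Gata4, a zinc-finger partner of Nkx2-5 and Tbx5, was slightly lower in RA than in V in the fit. The log2 difference was -0.22 in RA against V (SE 0.08, adjusted p = 0.028) and -0.20 in LA against V (SE 0.08, adjusted p = 0.064). In CPM the compartments were almost level, with medians of 123 in RA, 114 in LA and 119 in V. The call changed with the scaling between libraries: with library size alone the difference in RA was -0.03 (adjusted p = 0.83), where the median of all genes moved from 0.03 to 0.23. Gata4 thus lay below the median of all genes under both scalings. Library size alone also brought Gata6 to 0.35 in RA against V (adjusted p = 0.0165), from 0.14 (adjusted p = 0.24). Without the doubted libraries, a selection made in part by Myl4, Gata4 was called in both contrasts, at -0.36 (adjusted p = 0.00038) in RA and -0.26 (adjusted p = 0.0069) in LA.

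The other members showed no called difference between labelled compartments. Gata6, which shares its binding site with Gata4, had medians of 105, 92.0 and 82.8 CPM in RA, LA and V. Nkx2-5, the earliest marker of heart muscle cells, had 94.7, 78.0 and 81.8 CPM, and Hand2 had 30.9, 29.0 and 27.2 CPM. The MADS-box genes were as close, Mef2a at 390, 360 and 349 CPM, Mef2c at 91.7, 85.2 and 83.3 CPM and Srf at 69.2, 65.0 and 57.6 CPM. Log2 differences of these 6 genes from V lay between -0.15 (Mef2a in LA, SE 0.09) and 0.14 (Gata6 in RA, SE 0.09). Right and left atrium did not differ by the test in any of the 9 members, with 0 calls in edgeR and in DESeq2 and 0 at an unadjusted p under 0.05 (of 16688 genes 1 was called, 0.00599%, and 3.2% had an unadjusted p under 0.05). The nearest was Tbx5, higher in RA by 0.31 on the log2 scale with an SE of 0.25 and an unadjusted p of 0.22. In naïve libraries alone, 6 per compartment, no member was called, and Tbx5 was 1.43 higher in RA than in V (adjusted p = 0.16) on the log2 scale, where 0.00645% of genes were called in RA against V and 0% in LA against V.

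To see whether exposure or loss of the receptor altered these factors, each group was compared with naïve libraries of the same sex and compartment, 3 against 3, in 18 comparisons. Members were called in ventricles of high-dose females alone, where 6 of 9 passed: Nkx2-5, Hand2 and Srf rose and Gata6, Mef2a and Mef2c fell. In that comparison 23.7% of all genes tested were called (3313 of 14006), 12.2% higher and 11.4% lower. That balance depends on the scaling: with library size alone 609 genes were higher and 1771 lower, 17% in all, and the median of all genes was at -0.17. The median log2 fold change of the 9 members was -0.14, beside 0.01 over all genes.

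Nkx2-5 was at 55.7, 51.8 and 52.0 CPM in the naïve female ventricles and at 78.3, 89.6 and 78.0 CPM in the high-dose ones. All high-dose libraries were above all naïve ones. Such a separation was found for 37.9% of genes with a mean of at least 1 CPM. The increase was 1.74-fold (log2 fold change 0.80, SE 0.13, adjusted p = 0.0015). Hand2, which binds DNA as a partner of broadly expressed E proteins, was at 20.7, 22.4 and 22.9 CPM against 46.6, 37.5 and 29.8 CPM, again without overlap. It rose 1.92-fold (log2 fold change 0.94, SE 0.16, adjusted p = 0.0018). A second gene, Hand2os1, lies across Hand2 on the opposite strand, and since no strand handling is stated, reads from the stretch they share cannot be told apart by gene. Hand2os1 was counted at 16.75 to 24.1 CPM in these naïve libraries and at 4.95 to 18.3 CPM in the high-dose ones.

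Srf, which switches on both growth and contractile genes through CArG boxes like the pair in its own promoter window, was at 58.0, 53.9 and 46.6 CPM in naïve female ventricles. In high-dose ones it was at 76.0, 63.5 and 74.7 CPM. The groups did not overlap, and the increase was 1.55-fold (log2 fold change 0.63, SE 0.15, adjusted p = 0.0089). Srf was not called with library size alone (0.44, adjusted p = 0.0905) or in libraries 1 to 48 only (0.45, adjusted p = 0.073), where 12.6% of all genes were called. The other MADS-box members went down. Mef2a, the main MEF2 protein of the adult heart, was at 558, 569 and 446 CPM in naïve and 364, 362 and 229.5 CPM in high-dose libraries, lower by 0.56 on the log2 scale (SE 0.13, adjusted p = 0.0097). Mef2c, the MEF2 gene of the early heart, was at 121, 134 and 87.4 CPM against 68.4, 69.6 and 68.4 CPM. It fell by 0.53 on the log2 scale (SE 0.14, adjusted p = 0.018). Neither gene overlapped between the groups. Mef2c was not called without library 35, 36 or 43 (adjusted p between 0.065 and 0.095).

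Gata6 had 101, 100 and 85.3 CPM in naïve and 68.3, 77.3 and 52.8 CPM in high-dose libraries. Its decrease was the smallest of those called, -0.36 on the log2 scale (SE 0.12, adjusted p = 0.043), and it was not called without library 35, 36, 54, 43 or 66 (adjusted p between 0.070 and 0.13). Nor was Gata6 called with library size alone (-0.53, adjusted p = 0.051) or in libraries 1 to 48 only (-0.34, adjusted p = 0.10). Gata4 was at 128.2, 129 and 104 CPM against 112, 135 and 101 CPM, overlapping, with a log2 fold change of 0.12 (SE 0.12, adjusted p = 0.49). Tbx5 was at 48.0, 38.2 and 25.6 CPM against 25.4, 27.4 and 25.0 CPM (log2 fold change -0.32, SE 0.17, adjusted p = 0.20, but -0.58 and called in libraries 1 to 48 only, adjusted p = 0.047), and the highest of these naïve values is from library 35. Tbx20 was at 218, 198 and 150 CPM against 168, 151 and 134 CPM (log2 fold change -0.14, SE 0.12, adjusted p = 0.46).

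**Figure D3:**
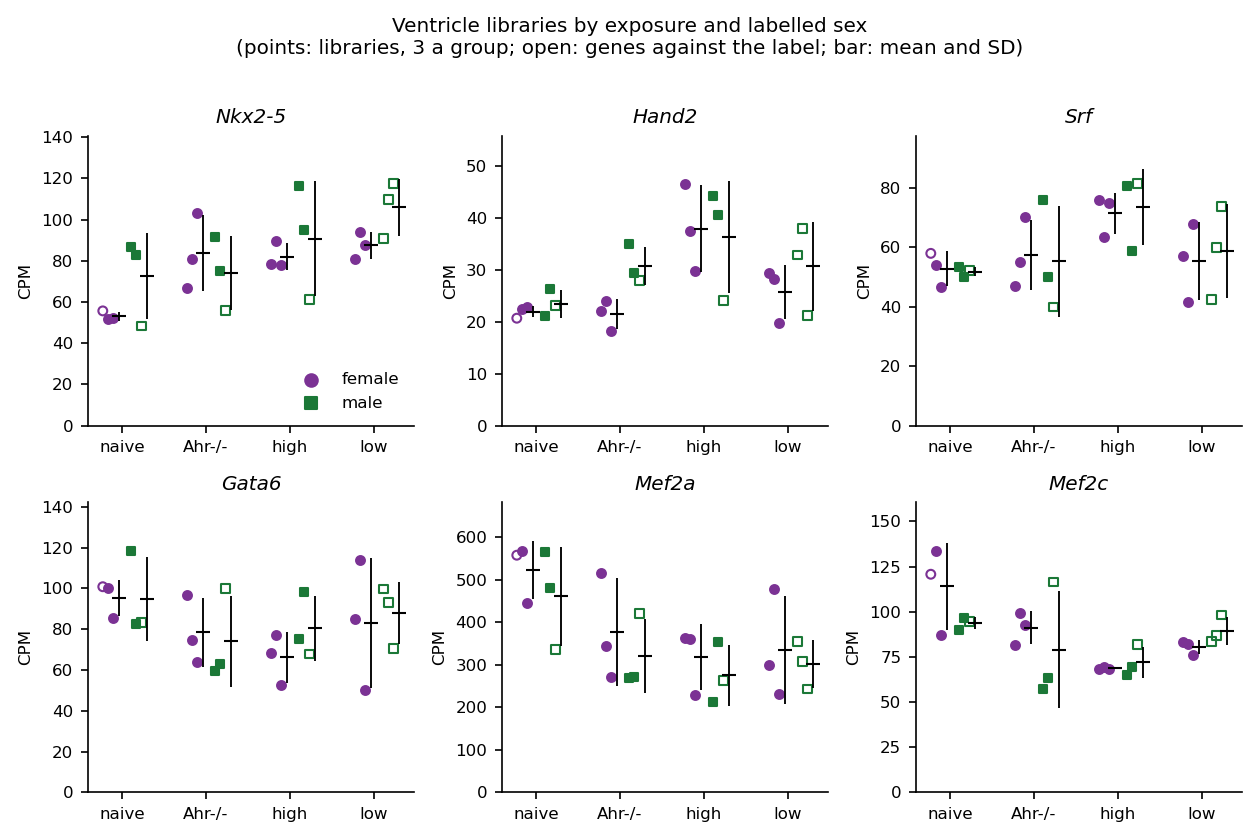
CPM of the 6 members called in high-dose female ventricles, in all 24 ventricle libraries by group and labelled sex, with mean and SD of 3 libraries (linear axes from 0, open symbols for doubted libraries). Female high-dose values of Nkx2-5 (78.0 to 89.6 CPM) lie above the naïve ones (51.8 to 55.7 CPM), and those of Mef2c (68.4 to 69.6 CPM) lie below (87.4 to 134 CPM).

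One of the naïve female ventricle libraries, 35, is doubted, with Myl4 at 193 CPM against 3.14 and 4.23 CPM in the other naïve ones and 2.51 to 22.1 CPM in the high-dose ones. Without it, 4 members were still called: Nkx2-5 (0.78, adjusted p = 0.012), Hand2 (0.85, adjusted p = 0.015), Mef2a (-0.56, adjusted p = 0.038) and Srf (0.65, adjusted p = 0.040). Mef2c (-0.54, adjusted p = 0.065) and Gata6 (-0.38, adjusted p = 0.13) kept their direction, and 10.9% of all genes were called. When all 72 libraries shared 1 estimate of spread, no member was called (adjusted p between 0.13 for Mef2c and 0.90 for Gata4) and 1 gene in all was (0.00599%). The log2 fold changes of the 6 members in that fit were 0.76 for Nkx2-5, 0.90 for Hand2, 0.59 for Srf, -0.60 for Mef2a, -0.57 for Mef2c and -0.40 for Gata6. In 1 fit of the 53 libraries that are not doubted, 0 members and 0% of genes were called by the adjusted p, with Nkx2-5 at 0.76, Hand2 at 0.83, Srf at 0.63 and Mef2a at -0.58.

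Base composition moved with this comparison and with others. For each library the median log2 deviation of genes in the upper tertile of GC content was compared with that of the lower tertile. This tilt was -0.43 to -0.33 in the naïve female ventricles and 0.04 to 0.40 in the high-dose ones, without overlap. Over the 18 comparisons, which share naïve libraries, the mean tilt of a group less that of its naïve libraries ran from 0.10 to 0.64, and was highest in high-dose male ventricle, next to 0.585 here. The members that rose are GC-rich: the longest transcript has 67.1% GC for Nkx2-5, 64.4% for Srf and 59.3% for Hand2. The MEF2 genes that fell are at 42.0% (Mef2a) and 40.8% (Mef2c), and Gata6 is at 56.5%. With a trend of GC content removed from each library, an alternative added after the data were seen, 3 members were called where 12.9% of all genes were. Hand2 rose by 0.59 on the log2 scale (SE 0.16, adjusted p = 0.032), Nkx2-5 rose by 0.45 (SE 0.12, adjusted p = 0.025) and Gata6 fell by 0.66 (SE 0.12, adjusted p = 0.0053). Srf was then at 0.25 (SE 0.12, adjusted p = 0.20), Mef2a at -0.20 (SE 0.12, adjusted p = 0.275) and Mef2c at -0.09 (SE 0.16, adjusted p = 0.77). Gata4 and Tbx20, not called either way, changed sign to -0.20 and 0.22.

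**Figure D4:**
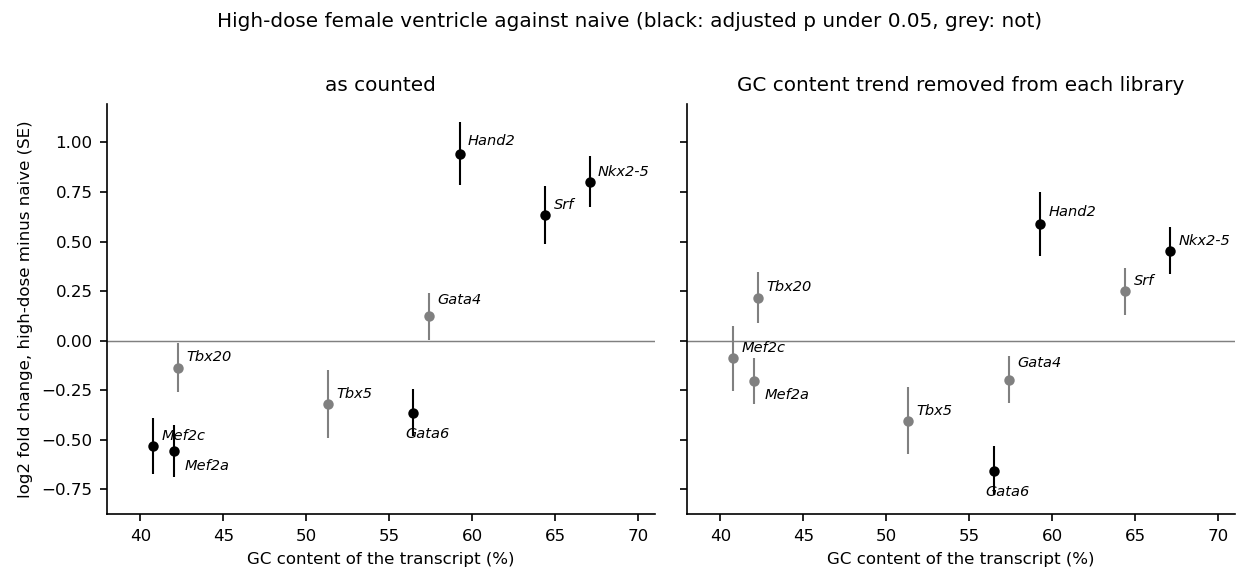
Log2 fold change with SE of 9 members in high-dose female ventricle against naïve, plotted against the GC content of the transcript (%), as counted (left) and with a GC trend removed from each library (right), black where the adjusted p was under 0.05. On the left Nkx2-5, Srf and Hand2 (59.3% to 67.1% GC) are above 0 and Mef2a and Mef2c (40.8% to 42.0%) below; on the right Nkx2-5, Hand2 and Gata6 are black.

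Cell type markers moved too. The summed level of 4 cardiomyocyte genes (Myh6, Tnnt2, Actn2 and Ttn) was 42706 to 55922 CPM in high-dose and 30750 to 39106 CPM in naïve female ventricles. Of the 4 genes 3 did not overlap, where 37.9% of genes with a mean of at least 1 CPM did not. Myh6 alone was at 29407 to 37950 CPM against 18436 to 20402 CPM, and it is also on the list of target genes read below. The sum of 4 fibroblast genes was 762 to 854 CPM against 880 to 1486 CPM, with 1 of the 4 not overlapping and lower. Sums of 4 endothelial genes (534 to 638 CPM against 491 to 556 CPM), 3 smooth muscle genes (204 to 258 CPM against 127.6 to 257 CPM) and 3 macrophage genes (35.2 to 54.5 CPM against 36.7 to 51.8 CPM) overlapped, although 2 of the 4 endothelial genes were higher in all high-dose libraries. The ventricular light chain genes Myl2 and Myl3 summed to 7687 to 8238 CPM against 6311 to 7153 CPM, with Myl3 higher and Myl2 lower without overlap. Xist was at 87.4 to 174 CPM against 194 to 348 CPM. Lung epithelium genes were at 0 in all of these libraries. What part these shifts have in the members' values was not tested.

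In the other 17 comparisons no member was called in 153 tests by edgeR, with adjusted p from 0.14 to 1.00, and DESeq2 called 1 (Nkx2-5 in low-dose female ventricle, adjusted p = 0.0017, with 3.62% of all genes). No gene at all was called in 16 of these comparisons and 0.0216% of genes in ventricles of Ahr-/- females. At an unadjusted p under 0.05 there were 17 member values, 11.1% of the tests, where 8.16% of all gene tests in these comparisons had one. The 3 comparisons of each sex and compartment use the same naïve libraries, so a low or high naïve group enters all 3. All 3 male low-dose ventricle libraries are doubted, and that comparison has no value without them.

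Beside the naïve values of Nkx2-5 in female ventricle, 51.8 to 55.7 CPM, low-dose libraries were at 81.0, 93.9 and 87.7 CPM and Ahr-/- libraries at 66.9, 81.1 and 103 CPM. Both groups were above all naïve libraries, where 25.1% and 12.7% of genes did not overlap. The log2 fold change was 0.90 at low dose (SE 0.18, adjusted p = 0.14) and 0.75 in Ahr-/- (SE 0.20, adjusted p = 0.49). Without Ahr-/- library 39 the second was called, at 0.92 with an adjusted p of 0.018, together with Mef2a at -0.66 (adjusted p = 0.024) and 7.11% of all genes. Over the 6 libraries left out in turn, Nkx2-5 in Ahr-/- ran from 0.47 to 0.92, with adjusted p from 0.018 to 0.89. Male ventricles gave 86.8, 82.6 and 48.4 CPM in naïve libraries, the last from doubted library 53, and 116, 95.0 and 61.1 CPM at high dose, the last from doubted library 65. These overlap, and the log2 fold change was 0.34 (0.35 in libraries 1 to 48 only, adjusted p = 0.29).

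Hand2 in male ventricle was at 21.1, 26.4 and 23.1 CPM in naïve and 44.4, 40.6 and 24.1 CPM in high-dose libraries (log2 fold change 0.66). The lowest high-dose value is again from library 65. In libraries 1 to 48 alone, 2 against 2, Hand2 (0.88, adjusted p = 0.034) and Tbx20 (-0.99, adjusted p = 0.033) were called there, with 15.9% of all genes. In the fit of the 53 libraries that are not doubted, which holds the same 4 libraries, they were at 0.94 (adjusted p = 0.066) and -0.93 (adjusted p = 0.075) and no member was called. The only value of Hand2 with an unadjusted p under 0.05 in these 17 comparisons was lower, in RA of Ahr-/- females, at 26.2, 27.7 and 18.0 CPM against 27.5, 30.6 and 37.6 CPM (log2 fold change -0.56, SE 0.24, adjusted p = 0.82). Libraries 4, 50 and 56 of these are doubted, and in the fit of the 53 other libraries, which leaves 1 naïve library assumed to vary like the other groups, the value was -0.05. Mef2a in male ventricle was at 566, 480 and 337 CPM in naïve and 212, 354 and 263 CPM in high-dose libraries, the last of each group from doubted libraries 53 and 65. The groups overlapped through library 53, and the log2 fold change of -0.75 was not called. In libraries 1 to 48 only it was -0.87 (adjusted p = 0.056), without overlap.

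The MEF2 genes held 9 of these 17 values, 4 for Mef2a (3 in LA and 1 in V) and 5 for Mef2c (4 in LA and 1 in RA). In LA of naïve females Mef2c was at 143, 147 and 97.6 CPM, above the 94.4, 78.7 and 71.5 CPM at high dose (log2 fold change -0.68, SE 0.20, adjusted p = 0.59). In LA of naïve males it was at 127, 107 and 75.9 CPM, and at high dose at 64.2, 64.0 and 59.3 CPM (log2 fold change -0.63, SE 0.21, adjusted p = 0.37). In 1 fit of the 53 libraries that are not doubted this became -0.79 and was called (adjusted p = 0.022), with 3.77% of all genes. The same 4 libraries fitted alone gave -0.86 (adjusted p = 0.23). Mef2a in LA of females was at 484, 584 and 396 CPM in naïve and 281, 355 and 190 CPM in low-dose libraries, without overlap (log2 fold change -0.71, SE 0.24, adjusted p = 0.20). The shares of genes without overlap were 13.3% in high-dose female LA, 14.1% in high-dose male LA and 22.8% in low-dose female LA. The GC tilt was -0.31 to -0.25 in naïve female LA, 0.05 to 0.44 at low dose and -0.16 to 0.29 at high dose. In male LA it was -0.52 to -0.07 in naïve and 0.11 to 0.33 in high-dose libraries, without overlap. With the GC trend removed, Mef2c was at -0.49 in high-dose female LA and -0.25 in high-dose male LA and Mef2a at -0.37 in low-dose female LA. Members with an unadjusted p under 0.05 then numbered 0 in high-dose male LA, from 2, and 0 in low-dose female LA, from 3. High-dose female LA had 1, as before. Without removal of the trend, 11.4%, 17.6% and 8.42% of all genes had such a p in these comparisons, in the same order. No share of all genes is given with the trend removed, so the lower counts are not read as particular to the members.

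Gata4 in RA of males was at 119, 108 and 95.8 CPM in naïve libraries, below the 154, 142 and 137 CPM at high dose and the 140, 145 and 139 CPM at low dose. The log2 fold changes were 0.51 (SE 0.18, adjusted p = 0.89) and 0.44 (SE 0.17, adjusted p = 0.94). No library of these groups is doubted, and 10.4% and 9.38% of genes did not overlap. Tbx5 had its lowest log2 fold change, -0.93, in LA of Ahr-/- females, where libraries 23 and 24 held 26.7 and 33.6 CPM and library 58 held 191 CPM. Libraries 23 and 24 are doubted because of Myl4, and without library 58 both Tbx5 (-2.36, adjusted p = 0.046) and Tbx20 (-1.31, adjusted p = 0.040) were called there, with 2.45% of all genes. That leaves the doubted pair alone. In the fit of the 53 other libraries, where library 58 stands alone and is assumed to vary like the other groups, Tbx5 was at 0.24 and Tbx20 at 0.09 and no member was called.

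**Figure D5:**
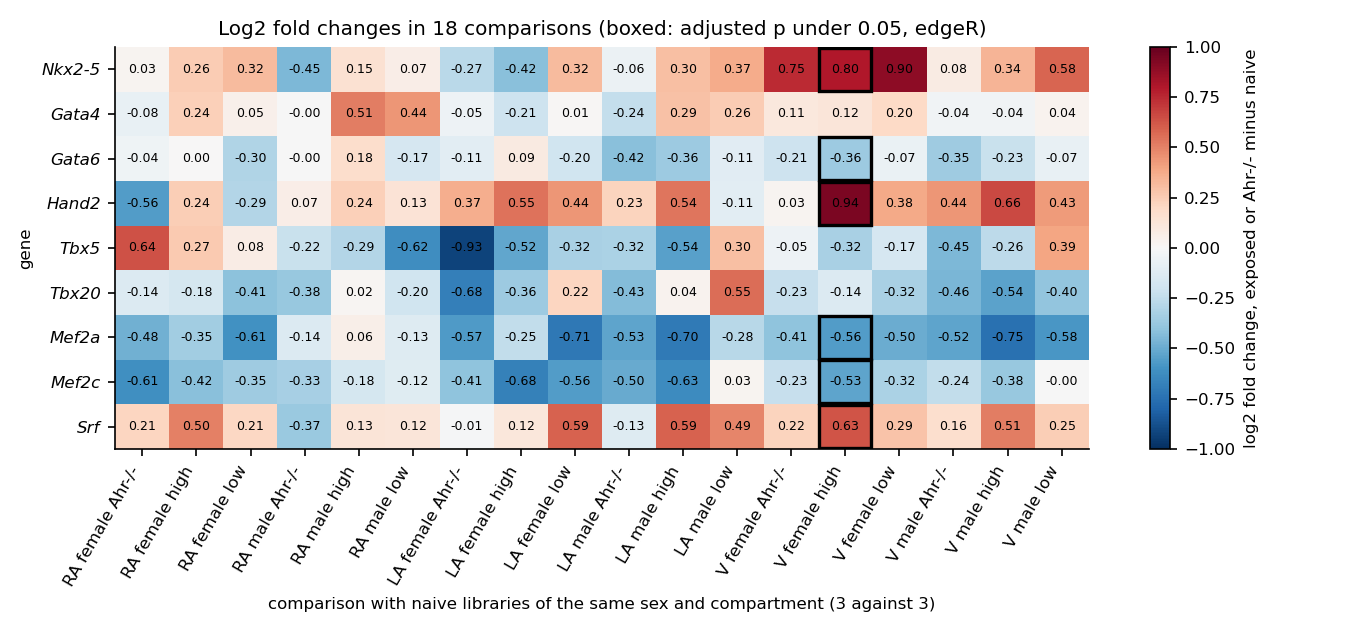
Log2 fold change of 9 members in the 18 comparisons with naïve libraries of the same sex and compartment (rows genes, columns comparisons, colour and number the value, box for an adjusted p under 0.05 in edgeR). Boxes occur in the high-dose female ventricle column alone, and the row of Mef2c runs from -0.68 to 0.03.

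Whether the sexes differed in these effects was tested with a sex-by-exposure term in 9 models. None of 81 member tests was called, by edgeR or DESeq2, and the lowest adjusted p was 0.87; no gene at all was called in these models (0%). Mef2c in LA at low dose alone had an unadjusted p under 0.05 (0.041), where 2.53% of all gene tests did, with a female effect lower than the male effect by 0.58 on the log2 scale. For high dose in ventricle, female and male effects were 0.94 and 0.66 for Hand2, -0.56 and -0.75 for Mef2a and 0.80 and 0.34 for Nkx2-5. The doubted male ventricle libraries enter each of these terms. Doubted libraries enter the RA and LA models too. The Mef2c term in LA at low dose holds the doubted male libraries 51 and 69. Of the 3 naïve female RA libraries 2 are doubted, and library 50 among them has Y-linked genes. The absence of calls therefore does not show that the sexes respond alike.

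Some members varied together between libraries of the same group. Deviations of log2 CPM from the group means correlated at 0.90 for Gata6 and Mef2a, 0.81 for Tbx5 and Tbx20, 0.62 for Nkx2-5 and Gata4 and 0.61 for Gata6 and Tbx5, over 72 libraries that share depths, base compositions and the doubted labels. Within the groups of the 53 other libraries these were 0.88, 0.57, 0.63 and 0.50. Mef2a also followed the GC tilt at -0.86 and Gata6 at -0.78, and Srf went the other way at 0.57. The genes most like each member over the 72 libraries, among 13951 with a mean of at least 1 CPM, were Gng2 and Tbc1d1 for Tbx5 (Pearson r of log2 CPM 0.97 each), Mbnl2 and Fgd4 for Mef2a (0.93 and 0.93), Hnrnpll and Tmpo for Gata6 (0.90 and 0.89) and Ehbp1 and Zfp521 for Tbx20 (0.88 and 0.87). Srf was closest to Bcl7b and U2af2 (0.84 and 0.83), Mef2c to Rora and Pard3b (0.82 and 0.81), Nkx2-5 to Dhrs11 and Ppp1r13l (0.76 and 0.72) and Gata4 to Gab1 and Tec (0.68 and 0.67). Hand2 had the weakest likeness, with Smim3 at 0.58 and Id1 at 0.55.

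A pair of lists was read beside the members, 25 relatives and cofactors and 20 genes that the members are known to control. In high-dose female ventricle 8 of the 23 cofactors tested were called, 4 higher and 4 lower, with a median log2 fold change of -0.08. Of the target genes 7 of 20 were called, 5 higher and 2 lower, with a median of 0.07 (0.01 over all genes, 23.7% of which were called). Tnnc1, the calcium sensor of the thin filament, was at 4548, 2471 and 4100 CPM in high-dose and 1250, 1397 and 1297 CPM in naïve libraries, a log2 fold change of 1.69 (adjusted p = 0.0011). Tnni3, the inhibitory troponin of the adult heart, rose by 1.23 and Actc1, cardiac actin, by 1.14 (adjusted p = 0.0018 and 0.0020). Hopx, a homeodomain protein that restrains SRF, fell by 0.85 (adjusted p = 0.0012). The acetyltransferase gene Ep300, a coactivator of GATA4 and MEF2, fell by 0.70 (adjusted p = 0.0023). Hdac5, a histone deacetylase that represses MEF2, rose by 0.69 (adjusted p = 0.0036). With the GC trend removed Hdac5 was no longer among the called cofactors, which were then 5, all lower, while 4 target genes were higher and 1 lower (12.9% of all genes were called).

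In RA against V 2 cofactors were higher and 5 lower of 24 tested, and 4 target genes were higher and 9 lower of 20, where 29.9% of all genes were called. Nppa, the atrial natriuretic peptide and a target of Tbx5 and Nkx2-5, was 23.7-fold higher in RA than in V (log2 difference 4.57, adjusted p = 3.9e-06), and Gja5, the atrial and conduction connexin, was 4.03-fold higher (2.01, adjusted p = 2.3e-05). Gata5, another cardiac GATA gene, was 9.01-fold higher (3.17, adjusted p = 3.8e-05). Irx5, a homeodomain repressor that shapes ventricular repolarization, was lower by 1.06 (adjusted p = 0.00065), Smyd1, a muscle methyltransferase, by 0.49 (adjusted p = 0.00094) and Ckm, muscle creatine kinase, by 0.96 (adjusted p = 0.0014) on the log2 scale. In LA against V 1 cofactor was higher and 5 lower, and 3 target genes were higher and 7 lower, where 19.4% of all genes were called. Hey2, a repressor of atrial genes in the ventricle, was lower in LA by 0.64 on the log2 scale (adjusted p = 0.0063). Without the doubted libraries 4 cofactors were higher and 8 lower of 25 in RA and 4 target genes higher and 13 lower of 20, where 45.3% of all genes were called. In LA these were 2 and 8, and 4 and 11, where 40.7% were. Nppa was then higher in RA by 6.31 on the log2 scale and Hey2 lower in LA by 0.71, in libraries selected in part by the atrial gene Myl4.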

How the data were processed

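The authors prepared libraries with a TruSeq RNA kit, made base calls with CASAVA 1.8, aligned reads to mm10 with TopHat and deposited raw counts per gene, described as over coding regions although genes without one, such as Xist, are counted too; strand handling and multi-mapped reads are not given in the sources used here. All 24237 rows carry an Entrez identifier and stayed in; symbols came from RefSeq for 24155 of them, and the rest hold 3.91% of counts. The members and lists were chosen with earlier results of these data known. CPM used the total of all rows.

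Tests used edgeR 4.0.16 (filterByExpr with a minimum count of 10 and a total of 15, TMM, robust quasi-likelihood), Benjamini-Hochberg adjustment over all genes tested and a threshold of 0.05: each exposure against naïve (3 against 3), compartments over 72 libraries, and sex by exposure. An exact permutation test of 3 against 3 cannot go below 0.1. Steps were tested on simulated data. Alternatives covered filters, scaling, DESeq2 1.42.0, the samples in the fit, libraries left out, and GC and length trends (natural spline, 5 degrees of freedom). Libraries of a group were taken as replicates, and p-values measure the spread between them. TCDD or vehicle was given to dams, and how many litters the mice of a group came from is not stated. Libraries of a group may therefore not be independent exposures.

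Named genes were all 10 members, up to 6 called genes per contrast from the lists by smallest p, and the 2 genes most correlated with each member. Markers of 12 cell types were summed. Sequences are from RefSeq, GRCm38.p6.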

Additional observations from a re-analysis of the deposited data

How the results depend on the processing

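In high-dose female ventricle the 6 calls became 0 at an adjusted p under 0.0001 in edgeR, where 4 of 14006 genes passed. In DESeq2 2 members passed it, Nkx2-5 with 1.4e-06 and Hand2 with 5.8e-06, as did 716 of 13998 genes. With all 4 groups of the sex and compartment in the fit the calls became 2, where 719 of 14502 genes were called. They became 3 with the GC trend removed and 0 with all 72 libraries in the fit. They became 0 without the doubted libraries and 0 without them and with the GC trend removed (both also fitted over all groups). When 1 library was left out, 4 to 6 members were called, where between 1553 of 14256 genes (without library 35) and 3917 of 14379 genes (without library 44) were. The counts of members thus moved beside a large share of all genes. No member was called at first elsewhere. In LA of Ahr-/- females 3 were called in libraries 1 to 48 only (Tbx5, Tbx20 and Mef2a, where both Ahr-/- libraries are doubted) and 0 to 2 with 1 library left out. The 2 were called without library 58, where 2.45% of all genes were. No share of all genes is given for that fit of libraries 1 to 48, so its 3 calls are not read as particular to the members. In ventricles of Ahr-/- females 0 to 2 were called with 1 library left out, the 2 without library 39, where 7.11% of all genes were. The count became 1 in LA of high-dose males without the doubted libraries in the fit over all groups, 1 in low-dose female ventricle with DESeq2 and 2 in high-dose male ventricle in libraries 1 to 48 only. Between RA and V the 3 calls became 1 at an adjusted p under 0.0001, where 340 of 16688 genes passed, and 0 in naïve libraries only. Between LA and V the 2 calls became 0 and 0 at these settings. Without the doubted libraries and with the GC trend removed they became 4, where 7478 of 17491 genes were called. The cause was not tested. Of 33 alternatives for compartments 28 kept the count within 1.5 times; where no member was called at first, a count that stayed at 0 says nothing about stability. Direction did not change in any of the 464 refits of named members that were called or had an unadjusted p under 0.05, 44 of which lost and 4 gained a call. These members were picked by their p in the same libraries that the refits reuse. A kept direction was therefore likely in advance and says little about stability. The GC and length trends, and the GC trend with libraries left out, were chosen after seeing the data. No paired analysis was possible because each library has a number of its own and the labels do not say which share a heart. Hand1 was too low at this depth to pass the filter on low counts.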
